A study of Felis catus with 12 samples.

Results

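Myoglobin and 7 genes of iron handling were followed across the left ventricles of 12 cats. The 8 members were taken by gene symbol, for their roles in oxygen storage and iron handling, from the 30785 genes listed: the globins MB and CYGB, the iron importer TFRC, the ferritin chains FTH1 and FTL, the iron exporter SLC40A1, and the haem oxygenases HMOX1 and HMOX2. All 8 were found, and all 8 passed the filter on low reads that left 8715 genes for testing.

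Heart muscle stores oxygen on the haem iron of myoglobin and spends iron on the respiratory chain. Iron bound to transferrin enters the cell through the transferrin receptor, is held in a shell of ferritin heavy and light chains, and leaves through ferroportin, while haem oxygenases open the haem ring and set its iron free. When cellular iron is low, iron regulatory proteins stabilise the transferrin receptor mRNA and hold back the translation of ferritin mRNA, so ferritin is set largely at a step that RNA reads do not show.

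The cats were patients of several breeds whose hearts were collected after death, untreated by the study, and RNA came from the free wall of the left ventricle. Polyadenylated RNA was read directly by Nanopore sequencing, each cat giving 1 library, and 3 flow cells took 4 barcoded libraries apiece. Flow cell A held cats 11, 23, 30 and 31, flow cell B held cats 10, 15, 35 and 36, and flow cell C held cats 37, 38, 29 and 22. The sample labels give the flow cell and a barcode number, and no trait of the cats, and since no cat was sequenced on more than 1 flow cell, a difference between flow cells and a difference between their cats cannot be told apart. Per the study, cats 11, 15, 30, 31, 35 and 37 died with congestive heart failure (HF) and cats 10, 23 and 38 with arterial thromboembolism (ATE), and cat 36 had no known cardiac death. Cats 22 and 29 are not on the study's list of sequenced cats. That list names other cats that no library label holds, so which animals these libraries came from is unsettled. Outcomes are not in the sample labels, so outcome groups were not tested. Ages and fibrosis percentages were taken from the study's list of cats and entered only as traits.

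Between 789257 and 2263110 reads per library fell on genes. A value is the number of reads divided by the size factor of its library, a scaling factor that evens out depth. Reads of different genes are set against each other only as ratios of members within a library, and those ratios were not corrected for gene length. Intervals for single libraries are exact Poisson 95% intervals of the reads and cover counting error only. The list of cardiomyocyte markers took 10.3% to 15.7% of the reads of each library, and its summed values on flow cell A (113310 to 185130) overlapped those on flow cells B and C (116920 to 242050). The 7 red blood cell markers measured had 2 to 46 reads per library in sum, with the band 3 gene SLC4A1 and the carbonic anhydrase gene CA1 at 0 throughout, but the main haemoglobin genes HBA1, HBA2 and HBB were not analysed here. In tissue RNA, fewer cells of a type and less RNA per cell cannot be told apart.

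MB, the oxygen store of cardiac and slow skeletal muscle, was lower on flow cell A. Its value was 2046 in cat 11, 4850 in cat 23, 3577 in cat 30 and 2903 in cat 31. On flow cell B it was 6389 in cat 10, 7167 in cat 15, 6247 in cat 35 and 7525 in cat 36. On flow cell C it was 4578 in cat 37, 9269 in cat 38, 8562 in cat 29 and 5885 in cat 22. Cats 11, 30 and 31 lay below every library of flow cells B and C, and cat 23 lay just above cat 37, so the groups overlapped by that pair. Between the lowest cat, 11, and the highest, 38, the values differed by a factor of 4.53. The coefficient of variation over the 12 cats was 38.8%, where counting alone gives 1.35%. The share of reads on MB ran from 0.187% in cat 11 to 0.772% in cat 38.

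CYGB, or cytoglobin, is the globin of fibroblasts and related cells. Its value on flow cell A was 11.6 in cat 11, 6.72 in cat 23, 9.26 in cat 30 and 7.18 in cat 31. Flow cell B gave 3.38 in cat 10, 23.1 in cat 15, 14.2 in cat 35 and 2.67 in cat 36. Flow cell C gave 2.86 in cat 37, 8.82 in cat 38, 3.33 in cat 29 and 2.70 in cat 22. These values rest on 2 to 24 reads, and the flow cells overlapped widely. The highest library, cat 15 (23.1, 95% interval 13.5 to 37.1), still stood clear of the lowest, cat 36 (2.67, interval 0.551 to 7.81). Only 5 of the 12 libraries had 10 or more CYGB reads, namely those of cats 11, 15, 30, 35 and 38, and neighbours in the order of levels did not differ beyond counting error. The coefficient of variation was 76.6%, of which counting alone gives 35.2%.

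TFRC encodes the transferrin receptor, the main route of iron into heart muscle cells. On flow cell A its value was 380 in cat 11, 196 in cat 23, 150 in cat 30 and 321 in cat 31. The cats of flow cell B had 116 in cat 10, 42.2 in cat 15, 113 in cat 35 and 107 in cat 36. The cats of flow cell C had 177 in cat 37, 160 in cat 38, 157 in cat 29 and 230 in cat 22. All 4 libraries of flow cell B lay below all 8 others, and cats 11 and 31 lay above the rest. The share of all genes with such a gap for flow cell B was not counted. Cat 15, with 31 reads, was the lowest, and cat 11, with 788 reads, was 9.01 times as high. The coefficient of variation was 52.6%, against 7.31% from counting.

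**Figure D1:**
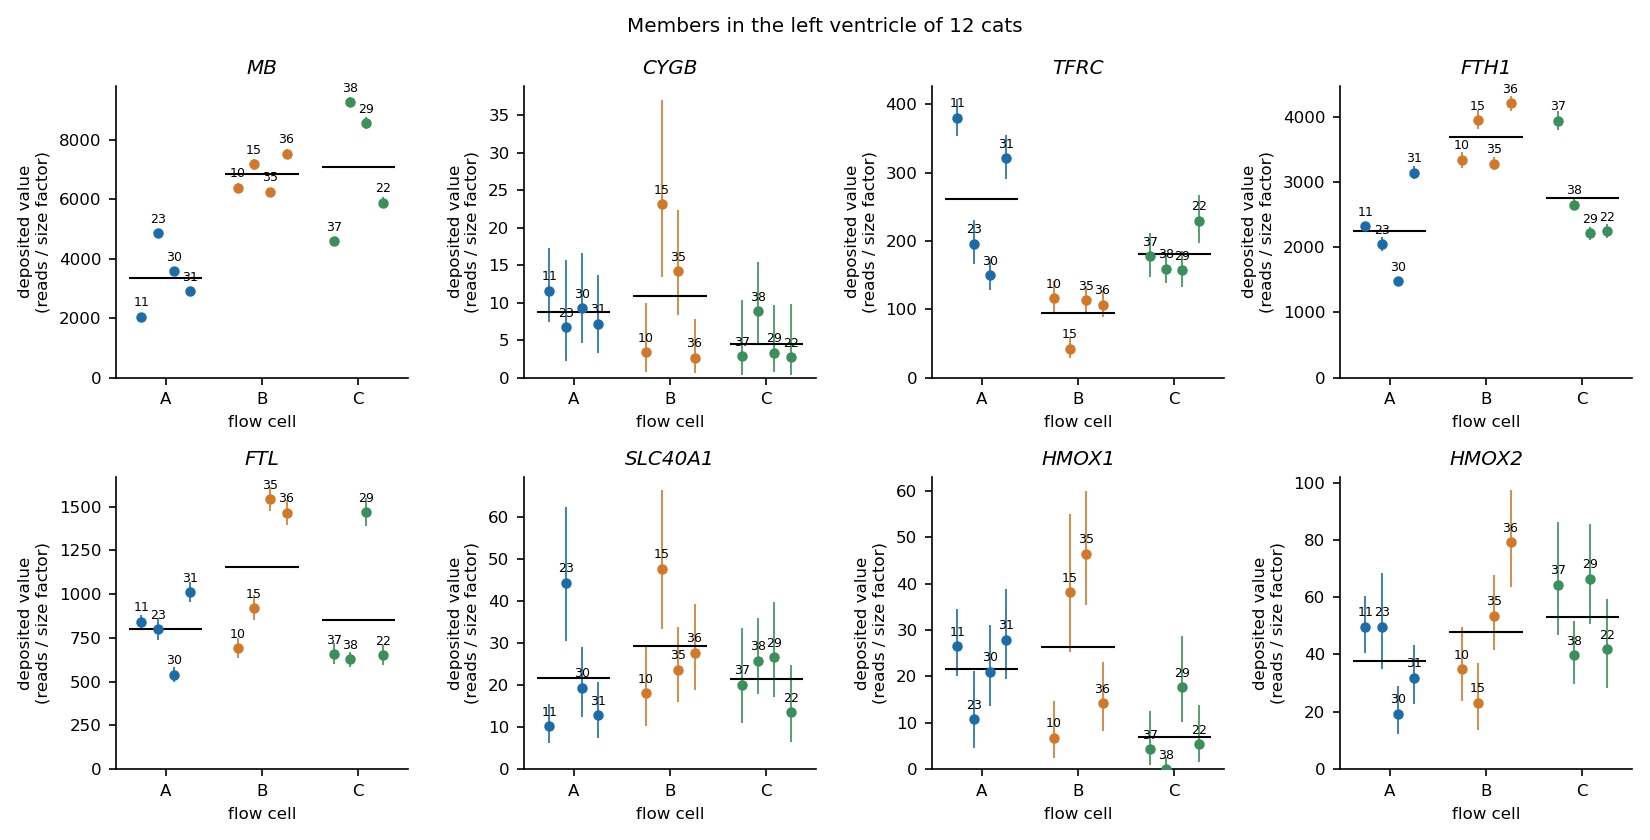
Value of each member (vertical axis, reads divided by the size factor of the library) in the 12 libraries, by flow cell (horizontal axis). Points are cats, named by number, thin bars are exact Poisson 95% intervals for counting error, and horizontal lines are means over 4 cats. MB is low in cats 11, 30 and 31, TFRC is low on all of flow cell B, and HMOX1 runs from 0 in cat 38 to 46.5 in cat 35.

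FTH1 encodes the ferritin heavy chain, which oxidises iron on its way into the store. Its value on flow cell A was 2316 in cat 11, 2042 in cat 23, 1473 in cat 30 and 3142 in cat 31. In flow cell B the values were 3338 in cat 10, 3947 in cat 15, 3274 in cat 35 and 4200 in cat 36. In flow cell C the values were 3936 in cat 37, 2648 in cat 38, 2209 in cat 29 and 2239 in cat 22. The 4 libraries of flow cell B lay above all 4 of flow cell A, while flow cell C spanned both. How many of all genes part these flow cells in that way was not counted. FTH1 varied least of the members, with a coefficient of variation of 30.1%.

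FTL encodes the ferritin light chain, which aids the laying down of the iron core. Its value on flow cell A was 842 in cat 11, 798 in cat 23, 540 in cat 30 and 1012 in cat 31. On flow cell B it was 690 in cat 10, 920 in cat 15, 1541 in cat 35 and 1464 in cat 36. On flow cell C it was 657 in cat 37, 627 in cat 38, 1466 in cat 29 and 649 in cat 22. Cats 35, 29 and 36 formed a high set (1464 to 1541) that did not follow flow cell, and every other cat had 1012 or less. The ferritin chains spread over a like range, a factor of 2.85 from lowest to highest for each, and cat 30 was the lowest for both.

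Ferritin reads carry a limit of their own. Ferritin genes have many processed copies in mammalian genomes, and how reads on such copies were counted is not given in the sources used here, so both levels are uncertain to that extent. In the RefSeq gene table for another assembly, FTH1 overlaps BEST1, a channel gene known from the retinal pigment epithelium. BEST1 was listed here with 315 to 1440 reads per library, or 10.8 to 45.1 BEST1 reads per 100 FTH1 reads, and without a stated strand setting reads of overlapping genes cannot be told apart. BEST1, singled out after its values were seen, lay between 665 and 877 on flow cell A and between 285 and 590 on the others. Its log2 difference of 0.67 (SE 0.18, adjusted p = 0.0404, limma) was opposite in sign to that of FTH1, and its part in the FTH1 values was not tested.

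SLC40A1 encodes ferroportin, the iron exporter that hepcidin removes from the cell surface. On flow cell A its value was 10.1 in cat 11, 44.3 in cat 23, 19.4 in cat 30 and 12.8 in cat 31. Flow cell B gave 18.04 in cat 10, 47.7 in cat 15, 23.6 in cat 35 and 27.6 in cat 36. Flow cell C gave 20.0 in cat 37, 25.7 in cat 38, 26.6 in cat 29 and 13.5 in cat 22. The flow cells overlapped, and cats 15 and 23 stood above the rest, while cats 11, 31 and 22 were the lowest. Reads ranged from 10 to 35, so the coefficient of variation of 48.4% compares with 21.2% from counting.

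HMOX1, the haem oxygenase that is induced by haem and oxidative stress, had the largest coefficient of variation of the 8 members, 78.4% against 22.8% from counting. On flow cell A its value was 26.5 in cat 11, 10.7 in cat 23, 21.0 in cat 30 and 27.9 in cat 31. The cats of flow cell B had 6.76 in cat 10, 38.1 in cat 15, 46.5 in cat 35 and 14.2 in cat 36. The cats of flow cell C had 4.29 in cat 37, 17.7 in cat 29 and 5.40 in cat 22. In cat 38 no HMOX1 read was counted among 1631706, which allows up to 3 reads or a value of 2.21, and the exact two-sided interval reaches a value of 2.71. Cats 35 and 15 were the highest, with 59 and 28 reads, and 3 of the 4 libraries of flow cell C were at or below 5.40.

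HMOX2, the constitutive haem oxygenase, varied less. Its value on flow cell A was 49.7 in cat 11, 49.7 in cat 23, 19.4 in cat 30 and 31.9 in cat 31. In flow cell B the values were 34.9 in cat 10, 23.1 in cat 15, 53.6 in cat 35 and 79.2 in cat 36. In flow cell C the values were 64.4 in cat 37, 39.7 in cat 38, 66.5 in cat 29 and 41.9 in cat 22. The flow cells overlapped throughout, and cat 15, high for HMOX1, was next to lowest for HMOX2. Its coefficient of variation was 39.0%, against 14.9% from counting.

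The comparison of flow cells asked whether the members moved with the labelled flow cell. It was fitted with limma on log2(value + 1) over the 12 libraries, with Benjamini-Hochberg adjustment over the 8715 genes. MB was the single member that passed at an adjusted p under 0.05 between flow cell A and the mean of B and C. The mean of MB was 3344 ± 1183 (SD, n = 4) on flow cell A and 6953 ± 1508 (SD, n = 8) on the others. The log2 difference was -1.09 (SE 0.24, 95% interval -1.61 to -0.58, adjusted p = 0.0177, limma), a fold of 0.468. Among all tested genes, 5.45% passed in either direction and 3.61% were lower on flow cell A, and 1 of 8 members is too few to read against those shares. The medians of the log2 differences were -0.31 over the members and 0.03 over all genes.

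The MB call rested on few libraries and on the scaling. Without cat 11 the MB log2 difference was -0.88 (adjusted p = 0.0949, limma) and without cat 31 it was -1.05 (adjusted p = 0.0597, limma). With cats 22 and 29 left out it was -1.06 (adjusted p = 0.0497, limma). With every gene with a read tested, its adjusted p was 0.0615 (limma). On reads without scaling, where the median of all genes moved to 0.41, MB was at -0.70 (adjusted p = 0.280, limma).

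TFRC went the other way, with a mean of 262 ± 107 (SD, n = 4) on flow cell A and 138 ± 56.1 (SD, n = 8) on the others. Those others were unlike, with a mean of 94.6 on flow cell B and 181 on flow cell C, and C overlapped A. The TFRC log2 difference between A and the others was 0.96 (SE 0.30, 95% interval 0.33 to 1.58), which missed the threshold (adjusted p = 0.0686, limma). On the whole reads, recovered by multiplying out the size factors, TFRC passed with edgeR's quasi-likelihood test (adjusted p = 0.0459) and with DESeq2 (adjusted p = 0.0156), and limma called it without cat 30 (log2 difference 1.19, adjusted p = 0.0325). Without cat 11 the TFRC difference was 0.75 (adjusted p = 0.285, limma) and without cat 31 it was 0.83 (adjusted p = 0.203, limma). FTH1 had a log2 difference of -0.54 (SE 0.22, 95% interval -0.9999 to -0.071, adjusted p = 0.164, limma). MB, TFRC and FTH1 were the 3 members with an unadjusted p under 0.05, which 22% of all genes had. For the other 5 members the interval of the difference held 0, from 1.03 for HMOX1 (interval -0.31 to 2.38) to -0.41 for HMOX2 (interval -1.11 to 0.29), with adjusted p from 0.358 to 0.624 (limma). No member had all 4 libraries of flow cell A on the same side of the other 8, which 4.23% of genes had.

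Some of the cell type marker lists moved with this contrast. The cardiomyocyte sum had a median of 121030 on flow cell A and 168130 on the others, with 2 of its 9 measured markers higher on average on A, and an r of 0.48 (rho 0.49) with MB over the 12 libraries. The 6 smooth muscle and pericyte markers summed to 443 to 1334 on flow cell A and to 129 to 363 on the others, with 5 of 6 higher on average on A. For the 7 fibroblast markers the sums were 1351 to 3593 on flow cell A and 295 to 2013 elsewhere, and 7 of 7 were higher on average on A. Over the 12 libraries, MB had a Pearson r of -0.92 (Spearman rho -0.92) with the summed smooth muscle and pericyte markers, and TFRC had an r of 0.81 (rho 0.73) with that sum and an r of 0.81 (rho 0.79) with the fibroblast sum. FTH1 had an r of -0.72 (rho -0.79) with the fibroblast sum. Of the skeletal muscle list only ACTA1, an actin that heart muscle also makes, and TNNT3 were measured, and nearly all of its sum was ACTA1. That sum had a median of 20690 on flow cell A (15464 to 28233) and 15261 on the others (7415 to 22523), with an r of 0.81 (rho 0.66) with TFRC and -0.54 (rho -0.62) with MB. These are descriptions over libraries that share scaling and flow cell, and the part of cell makeup in the MB, TFRC and FTH1 differences was not tested.

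Between flow cells C and B, 0% of genes passed the adjusted threshold (limma), and 7.87% had an unadjusted p under 0.05, TFRC and HMOX1 among them. DESeq2 called 23 genes and edgeR called 0. TFRC was higher on flow cell C, with a log2 difference of 1.02 (SE 0.34, 95% interval 0.29 to 1.74, adjusted p = 0.472, limma). HMOX1 had a log2 difference of -2.11 (SE 0.73, 95% interval -3.66 to -0.56, adjusted p = 0.477, limma), a value that depends on the pseudocount because cat 38 had no read. MB had a log2 difference of -0.0024 there, with an interval from -0.60 to 0.59. In the F test over all 3 flow cells 2.57% of genes passed, and MB (adjusted p = 0.0506) and TFRC (adjusted p = 0.0561, limma) missed the threshold.

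**Figure D2:**
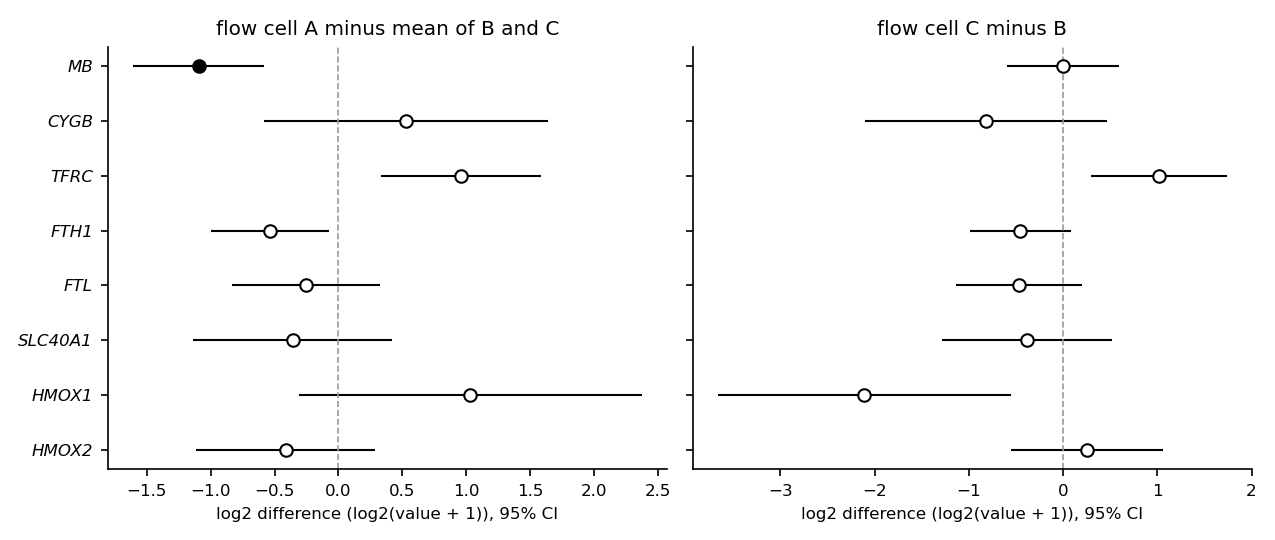
Log2 difference of each member (horizontal axis, log2(value + 1), limma) with its 95% interval, for flow cell A minus the mean of B and C (left) and C minus B (right). The filled point, MB at -1.09, is the only member past an adjusted p of 0.05, and TFRC is positive on both sides, at 0.96 and 1.02.

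Ratios between members within a library do not depend on scaling, and are given without a test. TFRC reads per 100 FTH1 reads set importer against store. The ratio was 16.4 in cat 11, 9.61 in cat 23, 10.2 in cat 30 and 10.2 in cat 31. On flow cell B it was 3.48 in cat 10, 1.07 in cat 15, 3.46 in cat 35 and 2.54 in cat 36. On flow cell C it was 4.51 in cat 37, 6.03 in cat 38, 7.12 in cat 29 and 10.3 in cat 22. The flow cells B and C did not overlap in this ratio, nor did A and B, and cat 22 reached into the range of flow cell A. How many pairs of genes part the flow cells in that way was not counted. The ratio draws on the TFRC and FTH1 values of flow cell B already described.

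SLC40A1 reads per 100 TFRC reads set exporter against importer. Cat 15 had 113, more exporter than importer reads, and cat 11 had 2.67, the lowest. The other 10 libraries lay between 3.97 and 25.8, with cat 31 low among them and cat 36 high. The FTH1 to FTL ratio lay between 2.56 and 3.10 on flow cell A and spread from 1.51 in cat 29 to 5.99 in cat 37 elsewhere. FTH1 reads outnumbered FTL reads in each of the 12 libraries. HMOX1 reads exceeded HMOX2 reads in cats 15 and 30, at ratios of 1.65 and 1.09, and the ratio on flow cell C stayed at or below 0.267. CYGB reads per 100 MB reads ran from 0.0355 in cat 36 to 0.566 in cat 11.

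**Figure D3:**
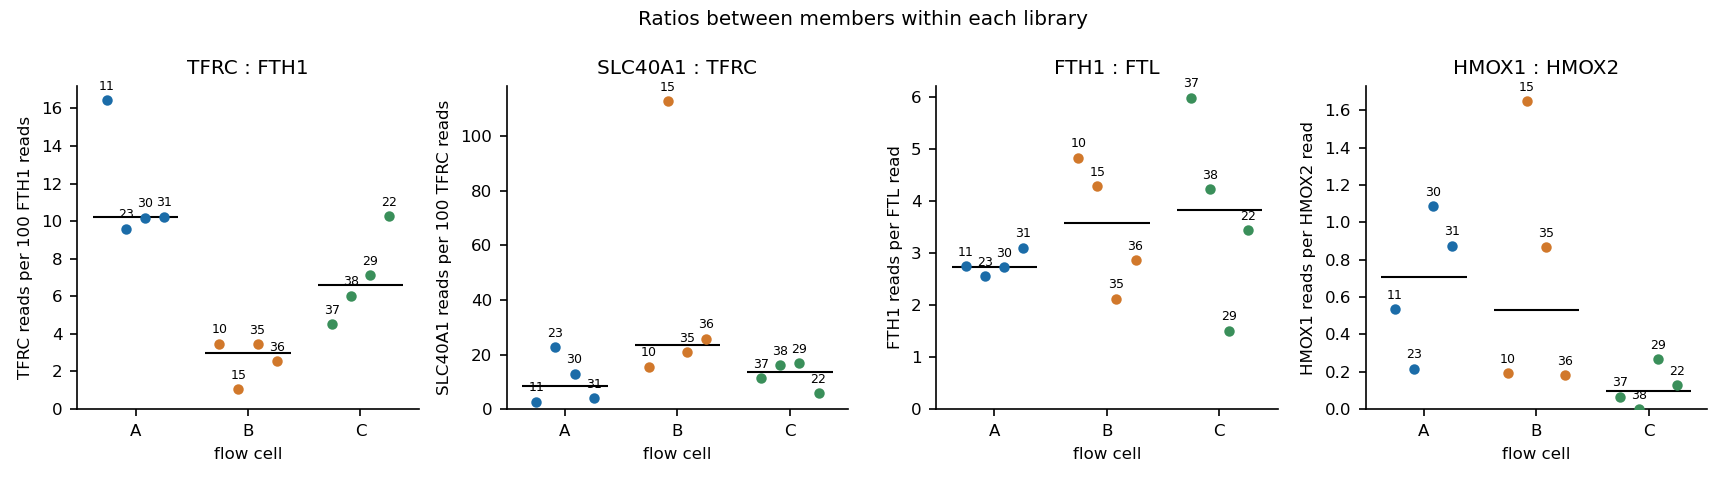
Ratios of reads between members within a library (vertical axes, in reads per 100 reads or per read as labelled), by flow cell (horizontal axis). Points are cats and lines are medians over 4 cats. TFRC per 100 FTH1 reads is 9.61 to 16.4 on flow cell A and 1.07 to 3.48 on flow cell B, and cat 15 stands apart at 113 SLC40A1 reads per 100 TFRC reads.

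Across the 12 libraries the members did not rise and fall as a block, and the correlations of log2(value + 1) that follow are descriptions. TFRC and SLC40A1 had the Pearson r farthest from 0 of the 28 pairs (r = -0.74, Spearman rho = -0.64), while by Spearman's rho MB with SLC40A1 (0.66) and CYGB with HMOX1 (0.65, r = 0.43) lay slightly farther from 0. The r of TFRC and SLC40A1 was -0.78 with each flow cell centred on its mean and -0.41 without cats 11 and 15, the libraries at the ends of the TFRC range. MB ran against TFRC (r = -0.66, rho = -0.62) and with SLC40A1 (r = 0.63, rho = 0.66). Without cats 11 and 31, the lowest libraries for MB, these r values fell to -0.29 and 0.22, so both pooled values rested on those cats. With each flow cell centred and all cats kept, r was -0.52 for MB with TFRC and 0.76 for MB with SLC40A1. FTL ran with both haem oxygenases, with r = 0.55 (rho 0.64) for HMOX1 and r = 0.54 (rho 0.50) for HMOX2, and kept 0.45 and 0.44 without cats 29 and 35. FTH1 and FTL, which assemble into the same shell, had r = 0.39 (rho 0.35), and MB and CYGB had r = -0.20 (rho -0.19). HMOX1 and HMOX2 had r = -0.15 (rho -0.17).

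**Figure D4:**
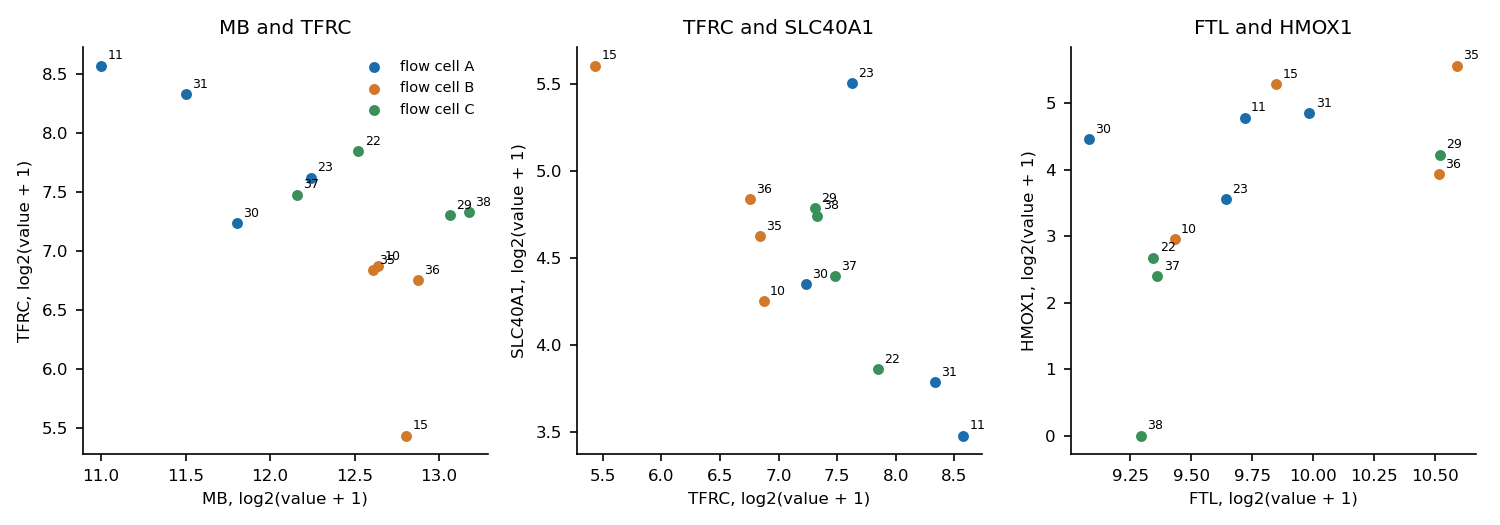
Pairs of members over the 12 libraries on log2(value + 1) axes, with each point a cat, named by number and coloured by flow cell. TFRC falls as SLC40A1 rises (r = -0.74) between cat 15 at one end and cats 11 and 31 at the other, MB and TFRC have r = -0.66, and FTL and HMOX1 have r = 0.55.

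The genes most like each member were sought among the 4584 genes with 10 or more reads in every library, by Pearson r over 12 libraries. Each r given was picked from the top of that search and has no test. For MB these were FAM234A (r = 0.955), FN3K (0.954), the fructosamine 3-kinase, and PFKL (0.945), the liver-type phosphofructokinase. With each flow cell centred on its mean, their r with MB was 0.922, 0.879 and 0.822. MB had 34 genes with r over 0.9, TFRC had 8, FTH1 had 1 and the other members had 0. The genes most like TFRC were LSM6 (r = 0.924), SEPT2 (0.920) and CCT6A (0.916), a subunit of a cytosolic chaperonin, with centred r of 0.859, 0.796 and 0.882. Among the genes of the other members, some r rose and others fell on centring. SELENOK (r = 0.934) was nearest to FTH1, followed by the elongation factor subunit EEF1B2 (0.895) and EVL (0.889). FTL was most like GGNBP2 (0.894), the ribosomal protein gene RPL11 (0.893) and SSR2 (0.875). For SLC40A1 they were HMCES (0.867), LOC101100421 (0.849) and PPP1R13B (0.843). For HMOX1 they were SEPHS2 (0.899), the oncostatin M receptor OSMR (0.854) and LOC101081428 (0.852), and for HMOX2 UBE2S (0.874), MPHOSPH8 (0.815) and LOC101096603 (0.813). CYGB, with few reads, was most like PPP2R3C (0.819), CLTA (0.815) and CHD4 (0.811). MB and HMOX1 are near neighbours in the RefSeq table, with 2 protein-coding genes, RASD2 and MCM5, between them, and their r was -0.39 (rho -0.27).

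The comparison with traits asked whether members followed age or fibrosis, which were among the traits the study ranked genes by. Across all genes, 0% passed the adjusted threshold for age and 0% for myocardial fibrosis (Spearman's rho, two-sided exact permutation over cats), while 4.76% and 2.83% had an unadjusted p under 0.05. Of the members, 0 of 8 had an unadjusted p under 0.05 for either trait. Other settings of the rank correlation gave such values for age, with adjusted p from 0.430 to 1. On reads without scaling, rho was -0.867 for FTH1 (exact permutation p = 0.00451) and -0.783 for HMOX2 (exact permutation p = 0.0172). In that setting 930 of the 8715 genes had an unadjusted p under 0.05, against 415 with scaling. Unscaled reads carry depth, which fell with age in these cats (Spearman rho = -0.700), and its part in these values was not tested. With the libraries labelled cats 22 and 29 added, rho was -0.636 for FTL (permutation p = 0.0416) and -0.618 for HMOX2 (permutation p = 0.0483). That setting took the ages listed for those numbers, which may belong to other animals, and 469 genes had an unadjusted p under 0.05. Without cat 15, rho was -0.786 for FTL (exact permutation p = 0.0279), and without cat 31 it was -0.738 for HMOX2 (exact permutation p = 0.0458). There 544 and 303 genes had an unadjusted p under 0.05. For age, in 9 cats, rho ran from -0.600 for FTL (exact permutation p = 0.0968, adjusted p = 0.918; Pearson r = -0.584, exact permutation p = 0.0968) to 0.400 for CYGB (exact permutation p = 0.291, adjusted p = 0.970; Pearson r = 0.353, exact permutation p = 0.349). HMOX2 had a rho of -0.567 (exact permutation p = 0.121, adjusted p = 0.918; Pearson r = -0.599, exact permutation p = 0.0910). Without the 2 cats farthest from the median age, which can be taken in 2 ways, r for FTL was -0.585 or -0.0402 and r for HMOX2 was 0.0166 or -0.105, so the HMOX2 relation rested on those cats, and that of FTL did in the latter case. For fibrosis, in 8 cats, rho lay between -0.143 for HMOX1 (exact permutation p = 0.752) and 0.357 for SLC40A1 (exact permutation p = 0.389), each with an adjusted p of 1. Pearson r for SLC40A1 was 0.545 (exact permutation p = 0.165) and turned to -0.623 without the 2 cats farthest from the median.

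TFRC was the member whose relation with age changed most within flow cells. With each flow cell centred, Pearson r between TFRC and age was -0.852 (exact permutation within flow cells, p = 0.0521), where the pooled r was -0.411 (exact permutation p = 0.279) and the pooled rho -0.267 (exact permutation p = 0.493, adjusted p = 0.995). In limma with flow cell as a covariate, the slope was -0.09 on the log2 scale per year (unadjusted p = 0.00217, adjusted p = 0.252), so TFRC did not pass across all genes. In that model 1010 of the 8715 genes had an unadjusted p under 0.05 (limma), TFRC and FTL among them, and 0 passed after adjustment. The pooled TFRC values rested on single cats, with a rho of -0.0238 without cat 15 and -0.643 without cat 36, and an r of -0.131 without cats 30 and 15 or -0.722 without cats 30 and 36. Depth also moved with age in these 9 cats (Pearson r = -0.716, p = 0.0308 by exact permutation, and Spearman rho = -0.700, p = 0.0433 by exact permutation), and its part in the TFRC values was not tested. The centred r for FTL was -0.713 (exact permutation within flow cells, p = 0.0833; limma slope -0.047, unadjusted p = 0.0354, adjusted p = 0.399) and that for SLC40A1 was 0.569 (exact permutation within flow cells, p = 0.233).

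**Figure D5:**
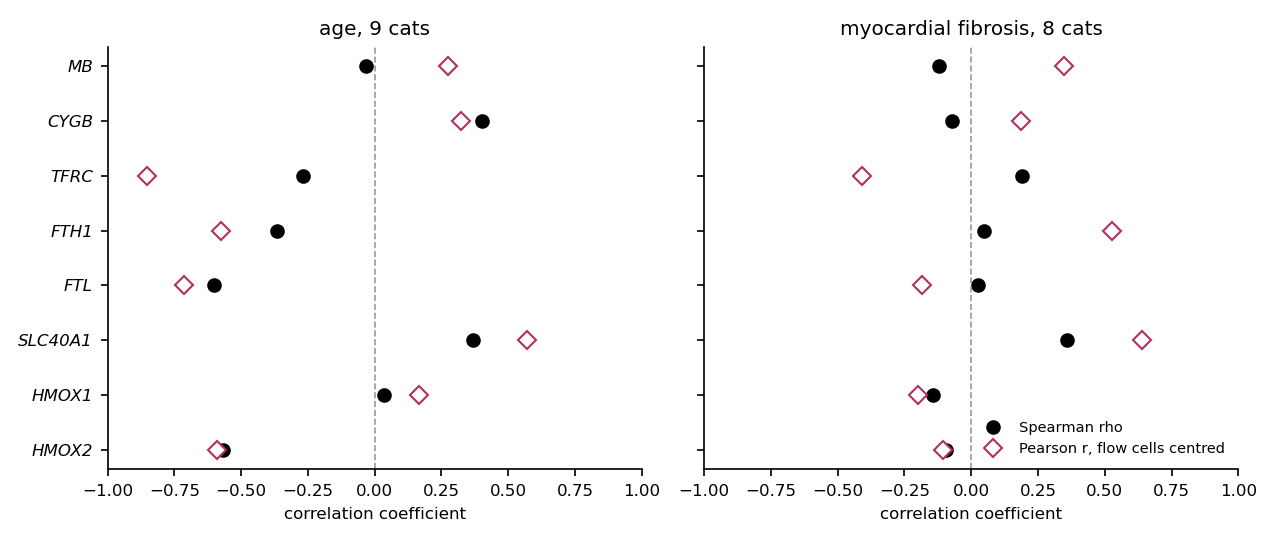
Correlation of each member with age in 9 cats (left) and with myocardial fibrosis in 8 cats (right). Filled circles are Spearman's rho over all cats and open diamonds are Pearson r after centring on flow cells. None of the rho values passes an unadjusted p of 0.05, and the TFRC diamond for age lies farthest from 0, at -0.852.

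The wider pathway was read from a list of 49 iron and haem genes, of which 45 were measured and 30 passed the filter. None of the 30 was called in any of the comparisons (limma or Spearman), and 6 of 30 had an unadjusted p under 0.05 between flow cell A and the others, 4 higher and 2 lower, where 22% of all genes had. In iron uptake, the zinc and iron transporter SLC39A14 lay between 27.2 and 197.8, with a log2 difference on flow cell A of 0.84 (adjusted p = 0.149, limma), and SLC39A8 and STEAP3 had at most 44 and 25 reads. Among the sensors of cellular iron, FBXL5 lay between 35.5 and 141, the iron regulatory proteins IREB2 and ACO1 reached 42.7 and 31.5, and BMP6, which drives hepcidin, reached 41.6. The chaperones that load ferritin, PCBP2 and PCBP1, lay in narrow ranges, at 682 to 987 and 172 to 362, and the ferritin autophagy receptor NCOA4 lay between 55.0 and 199.

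BLVRB and BLVRA, the biliverdin reductase genes of the list, differed in sign. BLVRB had a log2 difference on flow cell A of -0.86 (SE 0.29, adjusted p = 0.0942, limma), and BLVRA had 1.11 (SE 0.45, adjusted p = 0.160, limma). They were the 2 with an unadjusted p under 0.05 among the 5 genes tested for haem scavenging, haem transport and bilirubin. In the same role LRP1 had 0.11 (adjusted p = 0.856, limma), SLC48A1 had 0.086 (adjusted p = 0.864, limma) and CD163 had 1.04 (adjusted p = 0.363, limma). In haem synthesis, ALAS1, the rate-limiting enzyme outside red cells, lay between 35.4 in cat 15 and 219 in cat 29, and FECH, which inserts the iron, between 72.5 and 223. In mitochondria, the iron-sulphur scaffold ISCU lay between 241 and 1070, with a log2 difference on flow cell A of -0.73 (adjusted p = 0.139, limma), with GLRX5 and NFS1 among the next in reads. Mitochondrial ferritin (FTMT), hephaestin (HEPH), haemopexin (HPX) and TMPRSS6 were at 0 in every library, and neuroglobin (NGB) had at most 1 read. Of 22 genes of the NRF2 oxidative stress response, which also governs HMOX1 and the ferritins, 20 were tested and 1 was called, a share near the 5.45% of all tested genes. The gene called was TALDO1 of the pentose phosphate pathway, at 20.8 to 47.1 on flow cell A and 47.3 to 126 on the others, with a log2 difference of -1.43 (SE 0.25, adjusted p = 0.00776, limma).

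Single cats stood out across members, and those that follow were singled out after their values were seen. Cat 15 had the lowest TFRC and the highest SLC40A1 and CYGB, and was second only to cat 35 for HMOX1. It also had the lowest ALAS1, at 26 reads, and the most reads of the red cell genes ALAS2 and HBM, at 24 and 20, where the other cats had at most 13 and 11. Cat 35 had the highest HMOX1 and FTL. It had 58 reads of HAMP, the hepcidin gene, where no other cat had more than 5, and 100 reads of haptoglobin (HP), where no other had more than 10. Its macrophage markers summed to 1542, against 124 to 632 in the other cats, with 492 reads of the haemoglobin receptor CD163. Over the 12 libraries the macrophage sum had an r of 0.37 (rho 0.38) with HMOX1 and 0.43 (rho 0.21) with FTL, and its part in the values of cat 35 was not tested. Cat 11 had the highest TFRC with the lowest MB and SLC40A1, and cat 38 had the highest MB with no HMOX1 read.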

How the data were processed

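The authors sequenced RNA of 12 feline left ventricles, called bases with Guppy, kept reads above a Phred score of 7, aligned them to felCat9 (Minimap2) and summed them by gene (FeatureCounts). The deposited unit is a signal, reads over a size factor, which the methods of the authors do not mention; every value (100%) was a whole multiple of what 1 read is worth, within a relative tolerance of 1e-06, and whole reads were recovered from them. Strand and multimapping settings are not given in the sources used here. Genes were tested if 3 or more of the 10 libraries of listed cats had 10 reads. limma with an intensity trend was run on log2(value + 1), since the signal values the authors deposited are not counts, and Spearman's rho with exact permutation for traits. The alternatives were other scalings, filters, pseudocounts, coefficients and tools, a barcode block, and leaving out libraries. The members and lists were chosen with earlier results of these data known. Named genes are all members, the 3 genes most like each, and up to 4 genes with the most reads per role of the wider list. Other genes, among them BLVRA, genes without reads and genes noted in single cats, were named outside that rule. Some genes of the lists, such as MYH7, TF, CP, HJV, LCN2, HBB and FABP4, were not analysed here, and 1 more is not reported. Depth was 789257 to 2263110 reads, so genes under about 10 reads are imprecise. Tests were tried on simulated data. Tools were R 4.3.3, limma 3.58.1, edgeR 4.0.16, DESeq2 1.42.0, and Python 3.11.15 with scipy 1.17.1, numpy 2.4.6, matplotlib 3.10.9 and pandas 2.3.3.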

Additional observations from a re-analysis of the deposited data

Results flagged for a closer look

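Of 24 groups of 4 libraries examined (8 members on 3 flow cells), 3 held a library far from the rest by Dixon's criterion. That criterion flags about 1 in 20 groups of independent, normally distributed values. The groups here share libraries and the values were not logged, so the count cannot be set against that rate. TFRC in cat 15 was 42.2, against 107 to 116 in the other cats of flow cell B. FTL in cat 29 was 1466, against 627 to 657 in the other cats of flow cell C. CYGB in cat 38 was 8.82, against 2.70 to 3.33 in the other cats of flow cell C, which rests on 12 reads in that library. Its counting interval there (4.56 to 15.4) overlapped that of cat 37 (0.347 to 10.3).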

How the results depend on the processing

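The members' 32 results were recomputed under the alternatives, giving 608 values. Of these, 549 kept their direction and side of the threshold, 51 changed sign, all of them results that passed no threshold under either setting, 4 lost the MB call between flow cell A and the others, and 4 gained the TFRC call in that contrast. For that contrast, 475 genes were called, against 102 on reads without scaling, 824 with DESeq2 and, in an alternative chosen after seeing the data, 262 without cats 22 and 29. Of the calls, 33.7% were higher on flow cell A, against 94.1% without scaling and 46.9% with edgeR. Leaving out 1 library gave 47 (cat 11) to 530 calls, with 171 without cat 31 and 287 without cat 15. Between flow cells C and B there were 0 calls, against 5 without scaling, 23 with DESeq2, 1 with a pseudocount of 2, 1 without cats 22 and 29, and 0 to 2 with a library left out. Over any flow cell there were 224, against 64 without scaling, 78 without cats 22 and 29, and 31 to 258 with a library left out. Age and fibrosis had 0 calls under all alternatives run. For MB, testing every gene with a read gave an adjusted p of 0.0615. Leaving out 1 library moved its difference between -1.30 and -0.88, and that of TFRC between 0.75 and 1.19.

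Sign changes were as follows. Without scaling, flow cell A minus the others was 0.14 for FTL and 0.0059 for SLC40A1, rho with fibrosis was -0.286 for FTH1, -0.50 for FTL and -0.190 for TFRC, and rho with age was -0.133 for HMOX1. MB between C and B was 0.043 with edgeR and 0.049 with DESeq2. Pearson r was 0.0279 for MB with age, and with fibrosis 0.183 for CYGB, -0.127 for FTL, -0.187 for TFRC and 0.101 for HMOX1. With cats 22 and 29 added, rho was -0.0545 for FTH1 and -0.0545 for FTL with fibrosis and -0.00909 for HMOX1 with age. MB had a rho of 0.0238 with total fibrosis. limma slopes on log2(value + 1) per year were 0.0036 for MB, or 0.021 with flow cell as a covariate. Per percent fibrosis they were 0.048 for CYGB, -0.020 for FTL, -0.048 for TFRC and 0.052 for HMOX1. With flow cell as a covariate they were 0.036 for MB, 0.049 for CYGB, -0.023 for FTL and -0.072 for TFRC. With a library left out, MB between C and B ran from -0.15 to 0.19 and HMOX2 from -0.036 to 0.54. With age, rho ran from -0.286 to 0.310 for MB and from -0.310 to 0.238 for HMOX1. With fibrosis, rho ran from -0.429 to 0.0714 for MB, -0.429 to 0.179 for CYGB, -0.286 to 0.357 for FTH1, -0.214 to 0.536 for FTL, -0.143 to 0.571 for TFRC, -0.321 to 0.286 for HMOX1 and -0.429 to 0.250 for HMOX2. The causes were not tested.

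Barcode numbers gave no clear pairing of the libraries. The deviations of same-numbered libraries correlated between -0.0865 and 0.108 (median 0.0446), and those of other pairs between -0.132 and 0.114 (median -0.0115). Of the libraries, 5 of 12 were nearest to one of their own number. With the barcode number as a replicate block, 567 genes were called between flow cell A and the others, 0 between C and B and 352 over any flow cell, TFRC included in the first (adjusted p = 0.0343, limma).

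CYGB, HMOX1 and SLC40A1, with median reads of 7, 16 and 23.5, are the members limited by depth. The flow cell contrasts rest on 4 cats per flow cell, and the traits on 8 or 9 cats.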
